A study of Mus musculus with 4 samples.

Results

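The acrosome formation genes described here are 10 genes, *Gopc*, *Pick1*, *Agfg1*, *Spata16*, *Dpy19l2*, *Spaca1*, *Zpbp*, *Zpbp2*, *Acrbp* and *Acr*, out of 21938 protein-coding genes of the mouse annotation. They were taken by name for their known part in building the acrosome, and the rule uses no measured value, although results of these data were known when the group was drawn up. RFX2 binding was mapped by ChIP-seq, which sequences the chromatin that an antibody to a protein pulls down. The chromatin came from decapsulated testes of wild type (WT) mice of a mixed C57BL/6, 129/Sv and FVB/N background, labelled as taken at postnatal day 29 to 30. The text of the study speaks of dissociated germ cells from younger mice, a difference that the peak lists cannot resolve. Of the 4 samples, 2 were immunoprecipitated with an RFX2 antibody and 2 were inputs sequenced without antibody. The 3 deposited peak lists are those of replicate 1 (39825 peaks), of replicate 2 (21274 peaks) and a combined list (2726 peaks). The chromatin was not separated by cell type in the labels, so the lists do not show which cells held a peak, and they hold no expression values with which to check the tissue.

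The acrosome is a large secretory vesicle that covers the front of the sperm nucleus and releases enzymes at fertilization. It is built in round spermatids, where vesicles from the Golgi apparatus fuse into an acrosomal granule that attaches to the nuclear envelope and spreads over it. RFX2 is a winged-helix factor of the RFX (Regulatory Factor X) family, known for activating genes of ciliated cells and of meiotic and postmeiotic germ cells. It binds the X-box, an inverted repeat written here as GTTGCCATGGCAAC, 14 bases long.

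Among the 10 genes, *Pick1* and *Dpy19l2* had a strong RFX2 peak over the transcription start site (TSS) in both replicates and in the combined list. *Pick1* encodes a lipid-binding PDZ protein that acts in vesicle trafficking from the Golgi apparatus, and *Dpy19l2* a protein of the inner nuclear membrane that anchors the acrosome to the nucleus. *Acr*, which encodes the acrosomal protease acrosin, had a weak promoter peak in replicate 2 only. The other 7 genes had no promoter peak in any list. *Spata16* and *Agfg1*, which encode proteins of the Golgi apparatus and of the surface of proacrosomal vesicles, had peaks of both replicates at a distance from their promoters. *Acrbp* and *Acr* also had shared peaks within 50 kb, which lay nearest to other genes. With promoter peaks included, 6 of the 10 genes had a shared peak within 50 kb or in the gene, against 42.7% of all genes.

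A promoter was taken as 1000 bp upstream to 500 bp downstream of any annotated TSS of the gene. In replicate 1, 2 of the 10 genes had a promoter peak, against 14% of all protein-coding genes. In replicate 2 there were 3 of 10, against 11.3%. A promoter peak in both replicates was found for 2 of 10 genes, against 9.05% of all genes, and a promoter peak in the combined list for 2 of 10, against 5.26%. Each count rests on few genes, and no test was made of it. What follows is therefore a description of single loci.

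The sequences below show the best match to the X-box in the peaks that the description turns on, 5′ to 3′ on the strand of the gene, with 8 bases on each side and the match in capitals. The first is from *Dync2li1*, a cilia motor gene used in the study as a known target of RFX factors, and holds the complete palindrome. The sequences were read from GRCm38.p6. Their positions are chr17:84626445-84626474 for *Dync2li1*, chr15:79229085-79229114 for *Pick1*, chr9:24696269-24696298 (minus strand) for *Dpy19l2*, chr3:26595841-26595870 for the peak upstream of *Spata16*, chr3:26827359-26827388 and chr3:26878741-26878770 for the peaks inside *Spata16*, and chr6:125028434-125028463 for the peak upstream of *Acrbp*.
Dync2li1 promoter: gtgacgtcGTTGCCATGGCAACcgaggagc
Pick1 promoter: atgctcccGTTGCCCTGGCAACcgcgggcc
Dpy19l2 promoter: gtttcacgGTCGCCATGACGACgaggctgc
Spata16 upstream: gtagaattGTAGCCATGGCAACaacaggaa
Spata16 intron: tggctgtgGTTGCCATGACAACaccacaga
Spata16 exon peak: gtgttctgGTGCCCATGGCAACcaaggcgg
Acrbp upstream: cagttgtgGTTGTCATGACAACcatctgac

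Differences from the palindrome are given as its base, the position within the match (1 being its first base on the gene strand), and the base found. Half-sites are counted here as GTTGCC and GGCAAC, without the 2 central bases of the palindrome. *Pick1* had 1 difference (A7C), in these central bases, so that both half-sites so counted were complete. *Dpy19l2* had 3 differences (T3C, G10A, A12G), of which 1 fell in the left and 2 in the right half-site. The intronic *Spata16* site had G10A alone and the upstream *Spata16* site T3A alone, each a single change in 1 half-site. The site of the *Spata16* exon peak had T3G and G4C, both in the left half-site. The site upstream of *Acrbp* had C5T and G10A, 1 change in each half-site.

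*Pick1* (chr15:79229173-79249484, plus strand) held the strongest peak of the group. Its outermost annotated TSS is also a RefSeq TSS. The replicate 1 peak spanned chr15:79228361-79229599 with a score of 210, where the score is the deposited −log10 value of the peak caller. That score took rank 99 of the 39825 peaks. The replicate 2 peak, at chr15:79228448-79229472, had a score of 116 and rank 74 of 21274. Scores of separately called lists are not on 1 scale, but in both replicates the peak lay within the top 0.348% of its list.

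In the combined list the *Pick1* peak at chr15:79228346-79229597 had a −log10 p of 277, a −log10 q of 271, and rank 71 of 2726. Its fold enrichment over local background was 24.7, compared with a median of 15.0 over the 1003 combined peaks at promoters. By fold enrichment it took rank 503 of the list, well below its rank by p. Among the promoter peaks alone it was rank 47 by p. The promoter peaks ranked directly above and below it were those of *Dnajc16*, which encodes a DnaJ-family co-chaperone, with a −log10 p of 276.7 and *Cfap161*, which encodes a protein of motile cilia and flagella, with 275.7.

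The summit of the *Pick1* peak, the position of the highest signal, was at position 79229101, 72 bp upstream of the TSS. The centre of the X-box lay 1 bp from the summit. The 200 bp upstream of the TSS, chr15:79228973-79229172, are shown because they hold summit and X-box together, with the X-box in capitals.
Pick1 upstream: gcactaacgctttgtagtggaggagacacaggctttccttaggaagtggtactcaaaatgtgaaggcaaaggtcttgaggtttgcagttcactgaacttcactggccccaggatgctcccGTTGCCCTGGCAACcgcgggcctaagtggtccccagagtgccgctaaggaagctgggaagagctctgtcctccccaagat

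The *Pick1* peak also lay in the promoter of *Gm49486*, an annotated coding gene on the same strand whose TSS is 218 bp downstream of that of *Pick1* and which shares exons with it. A peak at this position cannot be assigned to 1 of these genes. No other peak of replicate 1 lay within 50 kb of a *Pick1* TSS or in the gene. Replicate 2 had a single further peak there, 24.0 kb upstream with a score of 4.08, which replicate 1 did not meet. The promoter peak was thus the only one near *Pick1* that both replicates held.

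*Dpy19l2* (chr9:24557047-24696293, minus strand) had a single annotated TSS, also the RefSeq one. Its promoter peak in replicate 1, at chr9:24695888-24696755, had a score of 111 and rank 556. In replicate 2 the peak at chr9:24695951-24696664 had a score of 63.2 and rank 352. It was lower than the *Pick1* peak in each list, and lay within the top 1.65% of its list in both replicates.

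The combined *Dpy19l2* peak, at chr9:24695900-24696742, had a −log10 p of 176, a −log10 q of 171 and a fold enrichment of 19.1. Its rank was 349 by p and 1020 by fold enrichment. Among the combined promoter peaks it was rank 212 of 1003, so most promoter peaks ranked below it. The promoter peak directly above it was that of *Foxj1*, which encodes the forkhead factor of motile ciliogenesis, with a −log10 p of 176.5. Directly below came the promoter peak that *Bbs12* and *Cetn4*, a Bardet-Biedl syndrome gene and a centrin gene, share, with 175.6.

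The *Dpy19l2* summit was at position 24696296, 3 bp upstream of the TSS. The X-box match lay on the other side of the TSS, with its centre 10 bp downstream, inside exon 1 and 12 bp from the summit. Over the 608 combined promoter peaks with an X-box of at most 3 differences, the median distance from summit to the best match was 8 bp and 76.6% lay within 20 bp. Over all 1003 combined promoter peaks the median distance from summit to the nearest TSS was 58 bp. The X-boxes of *Pick1* and *Dpy19l2* were both among those within 20 bp of the summit.

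**Figure D1:**
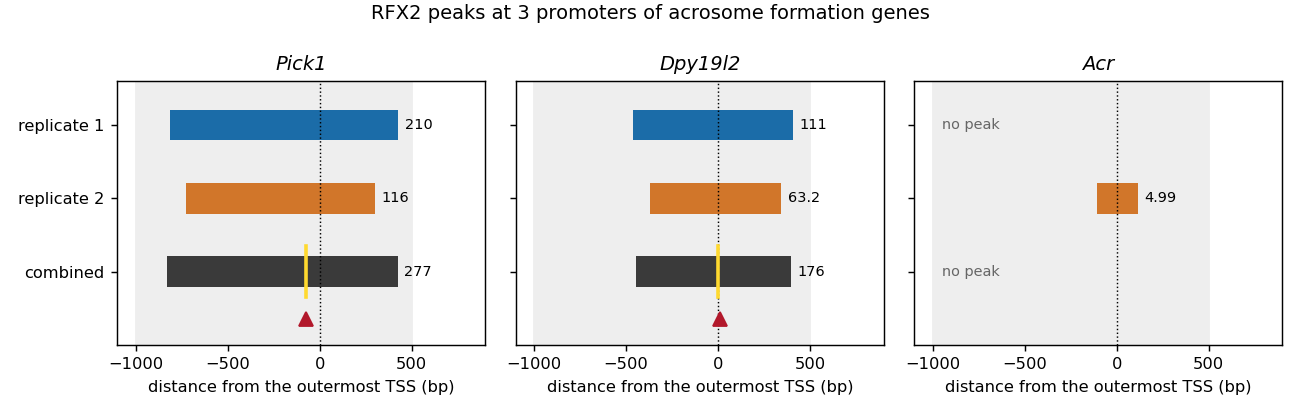
RFX2 peaks at the promoters of *Pick1*, *Dpy19l2* and *Acr*, drawn to scale as distance in bp from the outermost TSS, with the direction of transcription to the right. Bars are peaks of each list with their score (−log10 p for the combined list), the grey band is the promoter, yellow lines are summits and red triangles X-box matches with at most 3 differences. The *Pick1* and *Dpy19l2* bars cover the TSS in all 3 lists, whereas *Acr* has 1 short bar in replicate 2.

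*Dpy19l2* is 139 kb long, and further peaks were found inside it in single replicates. Replicate 1 had peaks in intron 14 (score 10.4) and intron 12 (3.64), and replicate 2 had 1 in intron 12 (6.03). None was met by the other replicate, and the peaks in intron 12 were at different positions. The next peak of the combined list was 223 kb upstream.

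As a measure of the same lists at a known target, the *Dync2li1* promoter had scores of 182 in replicate 1 and 83.0 in replicate 2, and a −log10 p of 244 with a fold enrichment of 34.0 in the combined list. *Pick1* ranked above *Dync2li1* by score in all 3 lists, and *Dpy19l2* below it. The fold enrichment of *Pick1* was lower than that of *Dync2li1*.

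**Figure D2:**
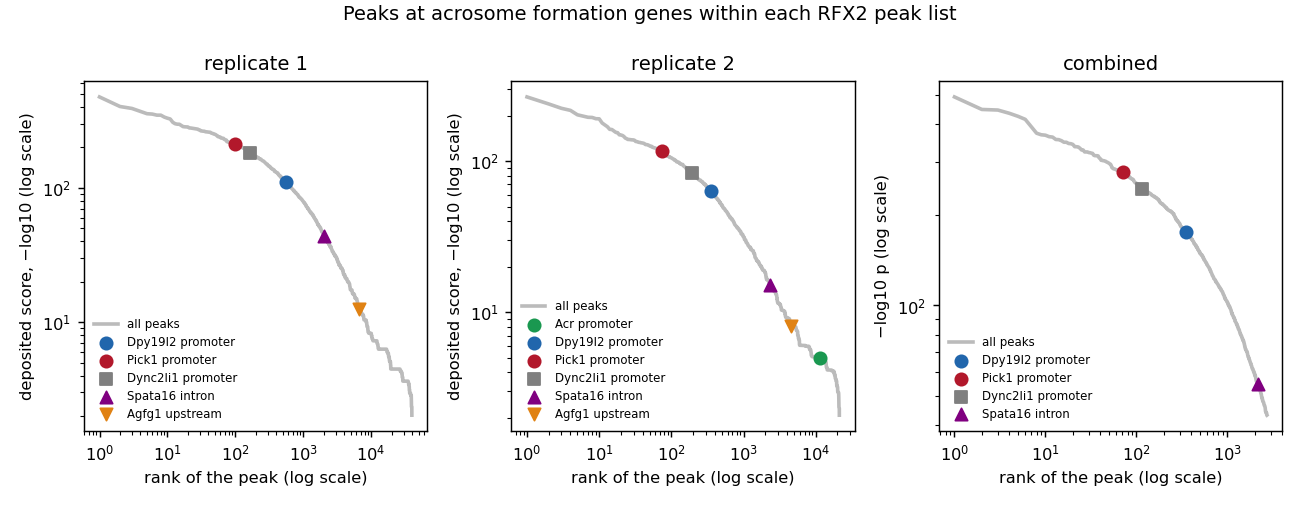
Score of each peak against its rank in the lists of replicate 1, replicate 2 and the combined list, both axes on a log scale. The grey line is the whole list, circles are promoter peaks of the acrosome formation genes, the square is the *Dync2li1* promoter, and triangles are the intronic *Spata16* and the upstream *Agfg1* peaks. *Pick1* at ranks 99, 74 and 71 and *Dpy19l2* at 556, 352 and 349 lie on the upper part of each curve, and the *Acr* promoter peak at 11607 on its tail.

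*Acr* (chr15:89568326-89574585, plus strand) was the third gene with a promoter peak. The peak was called in replicate 2 at chr15:89568221-89568439, over the TSS, with a score of 4.99 and rank 11607. That is below the median score of the list, 5.06, and 1387 peaks of the list had the same score. Neither replicate 1 nor the combined list had a peak there. The best match to the X-box in this peak of 219 bp had 4 differences, and it was also the best match in the 1501 bp promoter of *Acr*. Of all promoters, searched over 1501 bp, 41.6% held a match with at most 4 differences. No share was computed for stretches as short as the peak.

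The peaks that both replicates shared within 50 kb of *Acr* lay at other genes. They were at the promoter of *Rabl2*, which encodes a small GTPase of sperm flagella, 23.3 kb downstream (scores 31.0 and 17.8 in replicates 1 and 2), beyond *Rabl2* 27.8 kb downstream (25.2 and 5.86), and at the promoter of *Shank3*, a synaptic scaffold gene, 35.3 kb upstream (18.5 and 14.2). None of them was in the combined list, whose nearest peak was 143 kb upstream at the promoter of *Cpt1b*, a carnitine palmitoyltransferase gene.

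Of the genes for vesicle traffic and fusion, *Spata16* (chr3:26637620-26983212, plus strand) had no promoter peak but 3 peaks that both replicates held. *Spata16* encodes a testis protein of the Golgi apparatus and proacrosomal vesicles. One peak lay in intron 4 (the gene has 11 exons), 189 kb downstream of the TSS, with a score of 44.0 in replicate 1 and 15.1 in replicate 2. In the combined list it spanned chr3:26826687-26827850 with a −log10 p of 54.7, rank 2163 and a fold enrichment of 16.7. Its summit was 4 bp from the centre of the X-box with 1 difference printed above.

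The second *Spata16* peak lay outside protein-coding genes, 41.3 kb upstream of the TSS, and *Spata16* had the nearest TSS of any protein-coding gene. Its scores were 44.2 in replicate 1 and 10.3 in replicate 2. In the combined list, at chr3:26595560-26596336, it had a −log10 p of 47.9, rank 2474 and a fold enrichment of 15.2. The X-box with 1 difference lay 51 bp from its summit. Both combined peaks of *Spata16* stood in the lower part of that list, which begins at a −log10 p of 43.2.

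The third *Spata16* peak, 241 kb downstream, overlapped exon 6 (chr3:26878563-26878710). It had a score of 20.6 at rank 4431 in replicate 1 and of 14.6 at rank 2475 in replicate 2, and the combined list did not hold it. Its X-box with 2 differences began 39 bp past the exon, in intron 6. The other 6 peaks of replicate 1 and 3 peaks of replicate 2 inside the gene had scores from 2.96 to 10.4 and were not met by the other replicate.

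*Spata16* is 346 kb long, and long genes hold more peaks. A combined peak inside the gene but outside its promoters was found for 3.19% of all protein-coding genes, and for 28.9% of the 454 genes at least as long as *Spata16*. A peak of replicate 1 met by replicate 2, within 50 kb of a TSS or in the gene, was found for 6 of the 10 genes, against 42.7% of all genes. A peak inside a gene as long as *Spata16* is thus far more frequent than over all genes.

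*Agfg1* (chr1:82839483-82901182, plus strand) encodes an ArfGAP-domain protein on the surface of proacrosomal vesicles, needed for their fusion. It had no promoter peak. An intergenic peak 8.46 kb upstream was in replicate 1, at chr1:82830612-82831028, with a score of 12.6 and rank 6593. Replicate 2 held it at chr1:82830777-82830933 with a score of 8.10 and rank 4488. The peak was above the median of both lists and was not in the combined list. Its nearest TSS of a protein-coding gene was that of *Agfg1*.

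The *Agfg1* upstream peak had no match to the 14-base X-box within 4 differences. It did hold a form with 1 base in place of 2 between the half-sites, at chr1:82830790-82830818 with flanks, shown with the 13 bases in capitals.
Agfg1 upstream: acctggctGTTGCTAGGTAACtgttgggc
This form, GTTGCC and GGCAAC with 1 base (N) between them and at most 2 differences in the 12 half-site bases on either strand, was searched after the locus had been seen. It was held by 6.02% of all promoters and by 9.90% of all combined peaks, and the form with 3 bases between the half-sites by 9.35% of combined peaks. With 2 bases, the form that overlaps the X-box, the share was 67.1%. By the same rule, the replicate 2 peak 24.0 kb upstream of *Pick1*, which replicate 1 did not meet, held the form with 1 base, and the *Acr* promoter peak and the *Spata16* exon peak held the form with 3 bases. Such forms were thus also found in weak peaks of a single replicate. The shares above are for promoters of 1501 bp and for whole combined peaks, which had a median width of 886.5 bp. The *Agfg1* upstream peak was shorter, 417 bp in replicate 1 and 157 bp in replicate 2, so the shares are not for stretches of its length. The 3 peaks of replicate 1 inside *Agfg1* had scores of 3.64 to 4.47 and were not met by replicate 2.

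*Gopc* (chr10:52335850-52382124, minus strand) encodes a Golgi-associated PDZ protein that binds PICK1. It had no promoter peak in any list. Replicate 2 had a peak 1.65 kb upstream with a score of 5.06 and rank 9094, and another in intron 3 with a score of 4.08. The score of 5.06 was the median of that list, and 2417 of its peaks held it. Replicate 1 had 5 peaks within 50 kb, of which the highest had a score of 7.27. No peak around *Gopc* was shared by the replicates, in contrast to its partner *Pick1*, and the nearest combined peak was 100.03 kb downstream in *Dcbld1*, which encodes a membrane protein with CUB and LCCL domains.

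**Figure D3:**
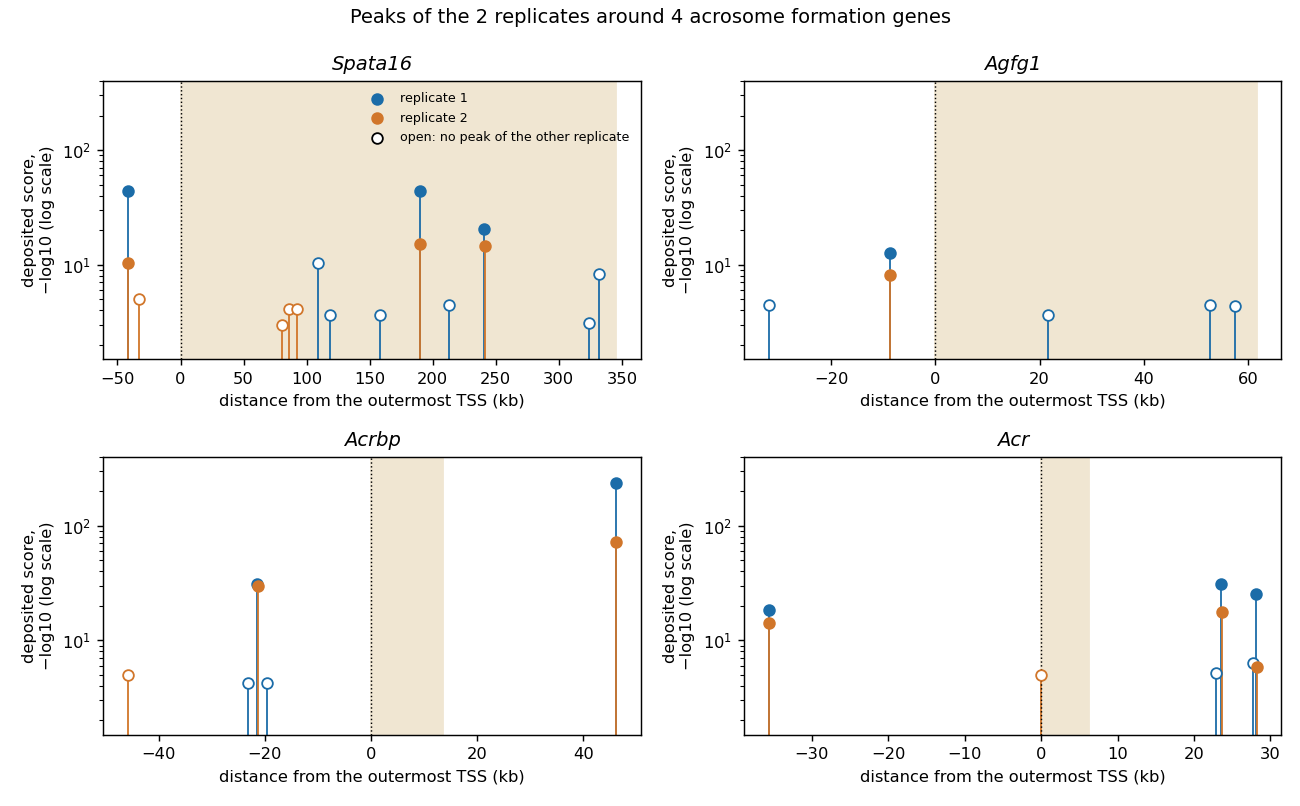
Peaks of replicate 1 and replicate 2 around *Spata16*, *Agfg1*, *Acrbp* and *Acr*, by distance in kb from the outermost TSS (x) and deposited score on a log scale (y). The tan band is the gene, filled points are peaks met by the other replicate, and open points are not. Filled points stand inside or nearest to *Spata16* and *Agfg1*, whereas those around *Acrbp* and *Acr* lie outside these genes and at their neighbours.

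Of the genes for the acrosomal membrane and matrix, *Acrbp* (chr6:125049689-125063267, plus strand), which encodes the protein that binds proacrosin in the granule, had no peak in its promoter or body. Both replicates shared a peak 20.9 kb upstream in an intron of *Zfp384*, which encodes a zinc-finger transcription factor. Its scores were 31.0 in replicate 1 and 29.9 in replicate 2, and in the combined list, at chr6:125027848-125028753, its −log10 p was 58.9, with rank 2001 and a fold enrichment of 17.5. The X-box with 2 differences lay 2 bp from the summit. The TSS nearest to this peak was that of *Zfp384*.

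On the other side of *Acrbp*, 33.3 kb downstream of its nearest TSS, lay a peak that scored above that of *Pick1* in replicate 1, though below it in replicate 2 and in the combined list. It covered the promoter of *Chd4*, which encodes a chromatin-remodelling ATPase, with scores of 235 and 72.4 in replicates 1 and 2 and a −log10 p of 234, rank 146 and a fold enrichment of 27.1 in the combined list. Its best X-box match had 4 differences. Distance alone therefore placed strong peaks near *Acrbp* that stood at other genes.

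*Spaca1* (chr4:34024874-34050191, minus strand) encodes a membrane protein of the acrosome. Replicate 1 had a peak inside the gene with a score of 6.29 and another 5.53 kb upstream with 2.96. Replicate 2 had none within 50 kb, its nearest being 107 kb downstream. The nearest combined peak was 1028 kb downstream in *Rragd*, which encodes a Rag GTPase, the greatest distance among the 10 genes.

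*Zpbp* (chr11:11279626-11462408, minus strand) and *Zpbp2* (chr11:98551097-98558665, plus strand) encode related zona pellucida-binding proteins of the acrosomal matrix. For *Zpbp*, replicate 1 had 5 peaks within 50 kb, all upstream in introns of *Spata48*, a spermatogenesis-associated gene. The nearest was 3.55 kb away with a score of 4.47, and the highest 35.4 kb away with 21.2. Replicate 2 had a single peak inside *Zpbp*, in intron 7, with a score of 5.95. No peak near *Zpbp* was shared by the replicates, not even the one that scored 21.2, which is the median of the replicate 1 peaks that replicate 2 met.

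Around *Zpbp2*, replicate 1 had 1 peak 5.24 kb downstream with a score of 5.99, and replicate 2 had none within 50 kb. The nearest combined peaks were 509.8 kb from *Zpbp* and 218 kb from *Zpbp2*. *Zpbp* and *Zpbp2* thus did not differ in having no shared peak nearby.

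Over all 10 genes, the distance from a TSS to the nearest peak had a median of 6.85 kb in replicate 1, 14.8 kb in replicate 2 and 122 kb in the combined list. The corresponding medians over all protein-coding genes were 16.8, 28.4 and 204 kb. In the combined list, 4 of the 10 genes had a peak within 50 kb, namely *Pick1*, *Dpy19l2*, *Acrbp* and *Spata16*, against 22.2% of all genes with a peak on their chromosome. The 10 distances in the combined list ranged from 0 to 1028 kb.

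**Figure D4:**
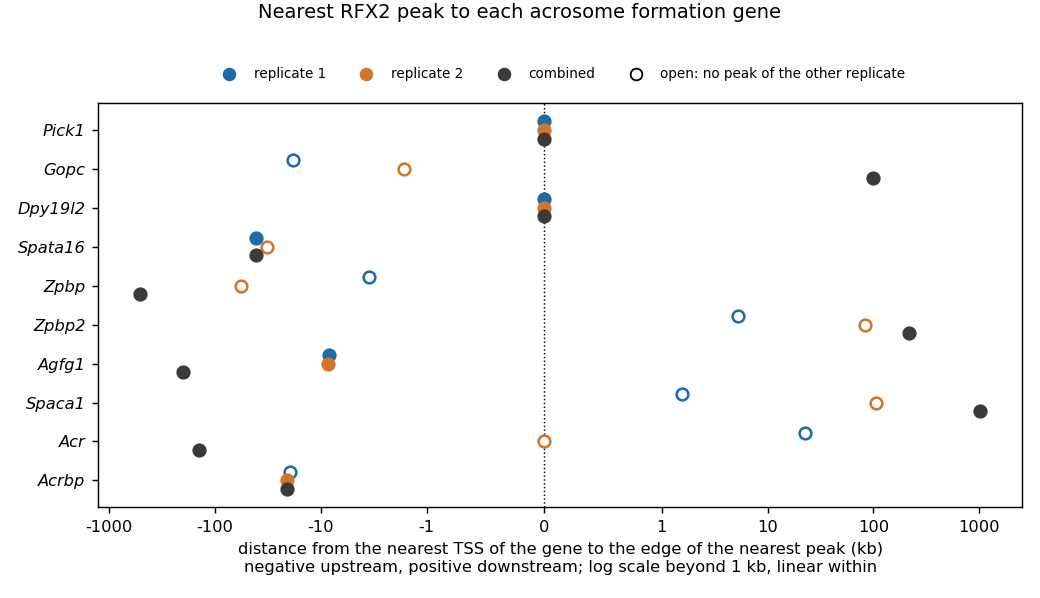
Distance in kb from each acrosome formation gene to its nearest peak in replicate 1 (blue), replicate 2 (orange) and the combined list (dark), on an axis that is linear within 1 kb and logarithmic beyond, negative upstream. Open points are replicate peaks without a peak of the other replicate. *Pick1* and *Dpy19l2* have points of all 3 lists at 0, and the *Acr* point at 0 is open.

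Peaks met by the other replicate were stronger than the rest in each list. Of the replicate 1 peaks, 20.2% were met by replicate 2, with a median score of 21.2 against 4.47 for those not met. Of the replicate 2 peaks, 39.2% were met by replicate 1, with medians of 9.08 and 4.72. The promoter peaks of *Pick1* and *Dpy19l2* exceeded these medians of met peaks, as did both combined-list peaks of *Spata16* in each replicate. The *Agfg1* peak fell below both, and the *Acr* peak was near the median of peaks not met.

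**Figure D5:**
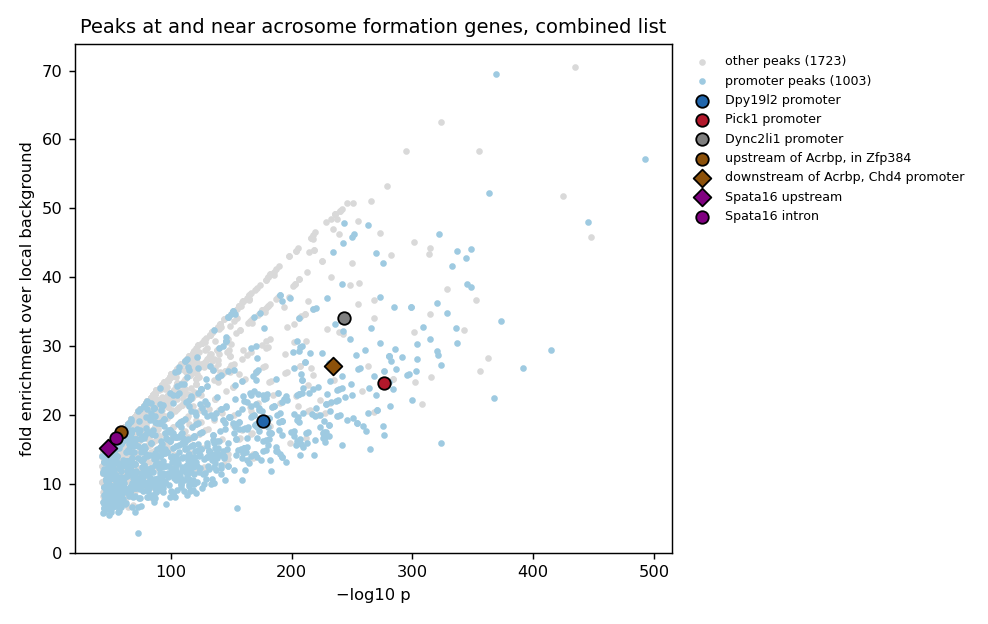
Fold enrichment over local background against −log10 p for all 2726 peaks of the combined list, promoter peaks in light blue and others in grey. Marked are the promoter peaks of *Pick1*, *Dpy19l2* and *Dync2li1*, the *Spata16* peaks, and the peaks on either side of *Acrbp*. The *Spata16* peaks have the lowest −log10 p of those marked (47.9 and 54.7). Their fold enrichments of 15.2 and 16.7 are below the list median of 17.0, whereas the 19.1 of *Dpy19l2* is above it.

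The X-box with at most 3 differences on either strand was found in the promoters of *Pick1* and *Dpy19l2* only, among the 10 genes, when 1501 bp at the outermost TSS were searched. Over all protein-coding genes 8.96% of such promoters held a match, and 60.6% of the combined promoter peaks. A match with at most 1 difference, as in *Pick1*, was in 0.416% of promoters and 9.87% of combined promoter peaks. Of the combined peaks outside promoters, where the upstream and intronic *Spata16* sites lie, 40.3% held such a match. The best matches in the other 8 promoters had 4 differences for *Acr*, *Zpbp* and *Agfg1*, 5 for *Acrbp*, *Spaca1*, *Spata16* and *Gopc*, and 6 for *Zpbp2*.

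The promoters with a shared peak did not stand at an extreme of base composition. The G+C content was 53.4% for *Pick1* and 51.7% for *Dpy19l2*, within the range of 43.4% (*Spata16*) to 58.5% (*Agfg1*) of the group. The median was 51.8% over all protein-coding genes and 52.8% over genes with a combined promoter peak.

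Further acrosome genes were examined as 2 lists. Of 22 genes for acrosome biogenesis and head shaping, 5 had a promoter peak in replicate 1, 4 in replicate 2, 2 in both and 1 in the combined list. The shares over all protein-coding genes were 14%, 11.3%, 9.05% and 5.26%, so that the counts in both replicates and in the combined list were close to the share over all genes. The genes with both were *Hsp90b1*, which encodes a chaperone of the endoplasmic reticulum, and *Stx2*, which encodes a syntaxin of membrane fusion. The *Hsp90b1* peak had scores of 145 and 72.3 and a −log10 p of 193, between those of *Pick1* and *Dpy19l2*, and lay also in the promoter of *Ttc41*, a tetratricopeptide repeat gene. Its summit in the combined list was 18 bp from the nearest *Ttc41* TSS and 353 bp from the nearest *Hsp90b1* TSS. The *Stx2* peak had scores of 23.1 and 20.7.

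Of 18 genes for acrosomal contents and membrane proteins, 8 had a promoter peak in replicate 1, 3 in replicate 2, 3 in both and 2 in the combined list, beside the same 14%, 11.3%, 9.05% and 5.26%. The count in replicate 1 lay furthest above its share, and 5 of those 8 genes, *Spaca6*, *Izumo4*, *Acrv1*, *Zp3r* and *Spesp1*, had peaks with scores of 4.47 to 8.28 that replicate 2 did not meet. These 5 were named after their values were seen. Those with both were *Spaca9*, *Izumo3* and *Pcsk4*, which encode a sperm acrosome-associated protein, a member of the IZUMO family and a proprotein convertase. *Spaca9* had scores of 33.0 and 34.3 and a −log10 p of 62.7, in a promoter shared with the adenylate kinase gene *Ak8*. The combined summit of that peak was 16 bp from the nearest *Ak8* TSS and 421 bp from the nearest *Spaca9* TSS. *Izumo3* had scores of 43.1 and 11.4 and a −log10 p of 45.8. *Pcsk4* had 12.6 and 8.44, in a peak shared with the promoter of *Reep6*, a gene of endoplasmic reticulum shaping. None of these reached the scores of *Pick1*.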

How the data were processed

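RFX2 ChIP-seq libraries of 2 WT testis replicates, each with an input, were sequenced and peaks called by the authors. Tools in the submitters' processing notes were CASAVA 1.8.2, Bowtie 0.12.7 and MACS2 2.0.10.20130520, on GRCm38. Per the study's methods, reads with several locations were discarded, which can hide peaks in repeats, and the library of replicate 2 was sequenced again, with human-mapping reads removed from that run. The deposited replicate lists give 1 score per peak on a −log10 scale, and which of the p-value and the q-value it stands for is not given in the sources used here. The deposited combined list gives a score, a summit, −log10 p, −log10 q and the fold, a ratio to local background. Its peak names carry the RFX2 ChIP label with the word all in place of a replicate, so it was taken to be called on the pooled reads of both ChIP replicates. The study's methods also describe a filter on reproducibility between replicates, and 99.9% of its peaks met a peak of both replicates. A place in the combined list is therefore no evidence beyond the replicates. Read depth is unknown, and no error or input value per peak was available.

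Ranks were computed within each list, and peaks with equal values all took the best rank of their tie. Gene models were those of GENCODE mouse release 21, on chromosomes 1 to 19, X and Y, so TSSs can differ from those the authors used. Sequence came from the RefSeq copy of GRCm38.p6. Peaks overlapped a promoter or each other at 1 bp or more, and peaks were called met on the same rule. A peak touching several kinds of region was put in the first of promoter, exon, intron and intergenic. These regions and the nearest TSSs were those of protein-coding genes only, so an intergenic peak can lie in a non-coding gene. Promoter counts were the same with bedtools 2.31.1, and all 200 genes with a planted peak were recovered on simulated data. Analyses used Python 3.11.15 with pandas 2.3.3 and numpy 2.4.6. All 10 genes are named, with genes sharing or nearest to a described peak, genes ranked next to them, *Dync2li1*, and those of the 2 further lists with a promoter peak in both replicates. The genes and lists were chosen for known functions, but with earlier results of these data known. Alternatives for the promoter, the TSS set, the overlap rule, a score threshold, the motif and the ranking are in the closing section.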

Additional observations from a re-analysis of the deposited data

How the results depend on the processing

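The count of genes with a promoter peak was recomputed with promoters of 500 bp upstream to 50 bp downstream and of 5000 bp upstream to 1000 bp downstream, with TSSs of coding transcripts, with the 5′-most coding TSS, with the peak centre or summit in the promoter, and with the top 50% of each list. Promoter peaks in both replicates stayed at 2 genes in all of these except the summit rule, which could be applied only to the combined list, and those in the combined list stayed at 2 in all of them. Over all protein-coding genes, the share ranged from 7.05% to 12.8% for both replicates and from 3.42% to 6.25% for the combined list. The wide promoter raised replicate 1 to 3 (*Zpbp* added), against 22.7% of all genes, and replicate 2 to 4 (*Gopc* added), against 17.4%. The top 50% lowered replicate 2 to 2 (*Acr* lost), against 9.15% of all genes. The shares over all genes moved the same way as these counts. Taking 1 replicate list alone, the count of 2 genes in both replicates ranged from 2 without replicate 2 (14% of all genes) to 3 without replicate 1 (11.3%). The count of 2 genes with an X-box in the promoter peak fell to 1 with at most 2 differences, since *Dpy19l2* was lost, and to 0 with half-sites 1 base apart, an alternative added after the data were seen. A match with at most 2 differences was in 2.30% of all promoters and 34.8% of combined promoter peaks. The form with half-sites 1 base apart was in 6.02% of all promoters and 9.90% of combined peaks. Ranked by width, the *Pick1* peak took rank 286 in replicate 1, 93 in replicate 2 and 299 in the combined list, *Dpy19l2* 1599, 627 and 1554, and *Acr* 7593 in replicate 2. By fold enrichment, *Pick1* took rank 503 and *Dpy19l2* 1020 of the combined list. No paired analysis was possible because no result comes from a test. Depth was unknown, so a missing peak shows only that none was called.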
